A study of Homo sapiens with 8 samples.

Results

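The mitotic genes examined here are 44 genes, given as a list of symbols, whose products drive, build or check cell division. Each symbol was looked up by Ensembl gene ID, and 44 of 44 were found among the 49733 gene IDs measured. The RNA came from HepG2, an established line grown from a human liver carcinoma, in 8 libraries of poly-A RNA. There were 4 groups with 2 libraries each, by treatment (BaP or vehicle) and time (12 h or 24 h). BaP groups received 2 µM benzo[a]pyrene (BaP), a polycyclic aromatic hydrocarbon that cells metabolise to products that bind DNA, and vehicle groups received 0.5% DMSO, the solvent. All groups were cultures of the same line that got fresh medium at 80% confluence, and the replicates were separate experiments per the labels. The labels name no sorting or synchronisation of the cells, so a lower level in these bulk samples can mean fewer dividing cells or less RNA per cell, which cannot be told apart.

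Mitosis starts when CDK1 with cyclin B phosphorylates its substrates. The spindle then forms, kinetochores attach the chromosomes to it, and the spindle checkpoint holds the cell until all are attached. Anaphase follows when CDC20 activates the anaphase-promoting complex, which marks securin and cyclin B for destruction. Many of these genes are transcribed mainly in G2 and M phase. A short promoter element, the cell cycle genes homology region (CHR), is known for this timing: the DREAM complex represses through it, and B-MYB, the MuvB core and FOXM1 activate through it. CCAAT boxes, bound by NF-Y, often lie close by.

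Promoter windows of RefSeq (GRCh38.p14), from 250 bases before to 50 after the transcription start, were matched by symbol for 37 of the 44 genes; AURKA, BIRC5, BUB3, FOXM1, TPX2, TTK and UBE2C had no entry. The letters searched for the CHR were TTTGAA and TTCGAA and for the CCAAT box CCAAT, each on both strands. CHR letters were in 25 of the 37 windows (67.6%), against 16.4% of 34796 windows of this length. CCAAT was in 28 windows (75.7%), against 34.6%, and both motifs were in 21 windows (56.8%), against 6.40%. The CHR matches lay close to the start: 20 of 37 windows (54.1%) had 1 that began between base -50 and base 50, against 5.02% of all windows. A match is a description of letters, not a site shown to be bound.

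**Figure D1:**
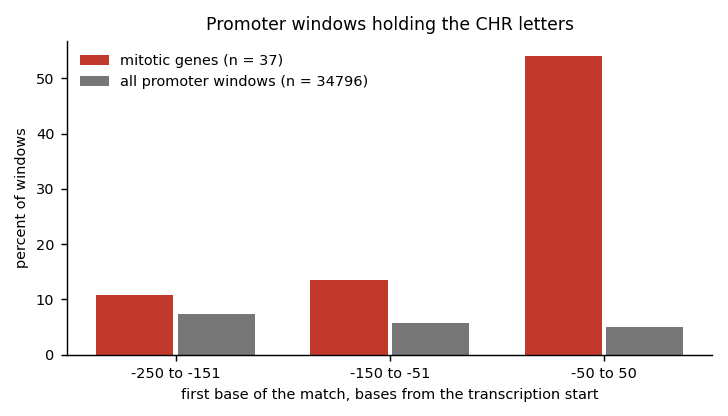
Percent of promoter windows (y axis) with CHR letters that begin in each of 3 stretches counted from the transcription start (x axis), for 37 mitotic genes (red) and all 34796 windows (grey). Mitotic genes stand at 54.1% in the stretch around the start, against 5.02% of all windows.

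Of the 8 genes that were lower with BaP at 12 h or 24 h in the tests below, 7 have a window, and 5 of these hold CHR letters: CDC20, PLK1, HMMR, CENPF and INCENP. That is 71.4%, near the 66.7% (20 of 30 windows) of the mitotic genes called at neither time. Their 110 bases before the start are shown, 5′ to 3′ on the gene's strand, as genes called lower whose windows hold the letters. Capitals mark CHR letters (TTTGAA) and CCAAT boxes (CCAAT, or ATTGG for the other strand).
CDC20 (chr1:43358871-43358980, plus strand): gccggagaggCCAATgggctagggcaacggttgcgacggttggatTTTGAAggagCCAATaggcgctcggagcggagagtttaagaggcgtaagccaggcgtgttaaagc
PLK1 (chr16:23678779-23678888, plus strand): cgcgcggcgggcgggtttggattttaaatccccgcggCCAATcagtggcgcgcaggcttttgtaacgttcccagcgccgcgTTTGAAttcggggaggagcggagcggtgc
HMMR (chr5:163460522-163460631, plus strand): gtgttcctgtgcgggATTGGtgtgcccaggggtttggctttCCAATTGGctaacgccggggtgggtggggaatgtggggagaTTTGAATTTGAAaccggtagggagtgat
CENPF (chr1:214603085-214603194, plus strand): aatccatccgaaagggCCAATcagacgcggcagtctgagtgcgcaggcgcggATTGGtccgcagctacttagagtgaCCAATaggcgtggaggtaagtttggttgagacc
INCENP (chr11:62123901-62124010, plus strand): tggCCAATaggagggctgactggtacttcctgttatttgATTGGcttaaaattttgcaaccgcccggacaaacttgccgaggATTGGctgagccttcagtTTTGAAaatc
The CHR letters shown begin at base -65 in CDC20, -29 in PLK1 and -10 in INCENP, and CDC20 has another match on the other strand at base -178, outside the stretch. HMMR holds them at bases -28 and -22, end to end, and a CCAAT box there overlaps its mirror on the other strand. In CENPF the CHR letters began at base 41, after the start, and are not in the stretch shown. The windows of AURKB and KIF20A held no match to these CHR letters, and KIF20A had 2 CCAAT boxes. Each gene was searched in a single window, and these windows lie inside the gene's span in GENCODE 29. AURKB, on the minus strand, spans up to base 8210600, and its window ends at 8210475. KIF20A spans from base 138178719, and its window begins at 138178862. Bases before a start farther upstream were therefore not searched.

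Estimated counts summed to 2592272 to 16533490 per library, with BaP 24 h replicate 1 the shallowest. Mitotic genes took 0.307% and 0.316% of all counts in the vehicle 12 h libraries, 0.261% and 0.277% in BaP 12 h, 0.276% and 0.284% in vehicle 24 h, and 0.238% and 0.249% in BaP 24 h. At each time both BaP libraries lay below both vehicle libraries. All 9 liver-type markers passed the filter on low counts, with albumin (ALB) at 1969 to 3098 CPM (counts scaled to a common library size), and the stromal markers DCN and LUM, the endothelial marker KDR and the T cell marker CD3E were at 0 in every library. The summed level of the 9 liver-type markers moved with BaP, from 25100 and 27380 CPM to 19210 and 20520 at 12 h, and from 29570 and 33810 to 21830 and 24320 at 24 h. That of the 5 leukocyte markers, mostly CD68, was 42.6 and 38.6 CPM with vehicle and 49.6 and 45.8 with BaP at 12 h, and 39.6 and 39.2 with vehicle and 58.9 and 62.2 with BaP at 24 h. That of the 6 stromal markers, mostly COL1A1 and PDGFRB, was 59.9 and 35.3 CPM with vehicle and 28.95 and 20.01 with BaP at 12 h, and 57.2 and 39.6 with vehicle and 31.5 and 25.75 with BaP at 24 h. Of the 3 endothelial markers found, 1 passed the filter. Their sum was 1.33 and 0.699 CPM with vehicle and 0.465 and 0.693 with BaP at 12 h. At 24 h it was 2.21 and 3.19 CPM with vehicle and 0.375 and 1.07 with BaP. The part of these markers in the results was not tested.

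All 44 genes passed the filter on low counts and were tested. Fold changes are log2 ± SE with 2 libraries per group, and adjusted p values come from the quasi-likelihood test of edgeR with the Benjamini-Hochberg method over 14746 genes, at a threshold of 0.05. At 12 h, BaP cells had lower levels of 7 of the 44 genes and higher levels of 0: CDC20, HMMR, KIF20A, CENPF, PLK1, BIRC5 and AURKB. Of all genes tested, 4.84% were called lower and 3.41% higher, 8.25% in either direction. The median log2 fold change of the mitotic genes was -0.21, against 0.015 for all genes tested, and 32 of 44 (72.7%) were below 0, against 47.9% of all genes. Both BaP libraries lay below both vehicle libraries for 25 genes (56.8%), against 23.9% of all genes, and above them for 5 (11.4%), against 25.4%. The changes were small, between -0.68 and 0.24. At an unadjusted p under 0.05 there were 14 of the 44 genes (31.8%), all below 0, against 19.6% of all genes in either direction. The 7 calls rest on few libraries. Without BaP 12 h replicate 1 or replicate 2 there were 0, without vehicle 12 h replicate 1 there was 1 and without vehicle 12 h replicate 2 there were 4. There were 2 when either vehicle 24 h library was left out, 11 and 10 without BaP 24 h replicate 1 and replicate 2, and DESeq2 called 3. A group left with a lone library is assumed to vary like the other groups.

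At 24 h, 2 of the 44 genes were lower, CENPF and INCENP, and 0 were higher, where 2.20% of all genes were called lower and 3.11% higher, 5.30% in either direction. The median was -0.15 against 0.006 for all genes, and 36 of 44 (81.8%) were below 0, against 49.3% of all genes. Both BaP libraries lay below both vehicle libraries for 23 genes (52.3%), against 24.0% of all genes, and above them for 2 (4.55%), against 23.2%. At an unadjusted p under 0.05 there were 9 of the 44 genes (20.5%), all below 0, against 19.99% of all genes in either direction, so that the count was near the background. Between -0.62 and 0.26, the changes spanned about the range seen at 12 h. Without BaP 24 h replicate 1, the shallow library, 5 genes were lower and 1, PTTG1, was higher. There were 0 calls without BaP 24 h replicate 2 or without either vehicle 24 h library, 1 when any of the 12 h libraries was left out, and 1 by DESeq2.

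**Figure D2:**
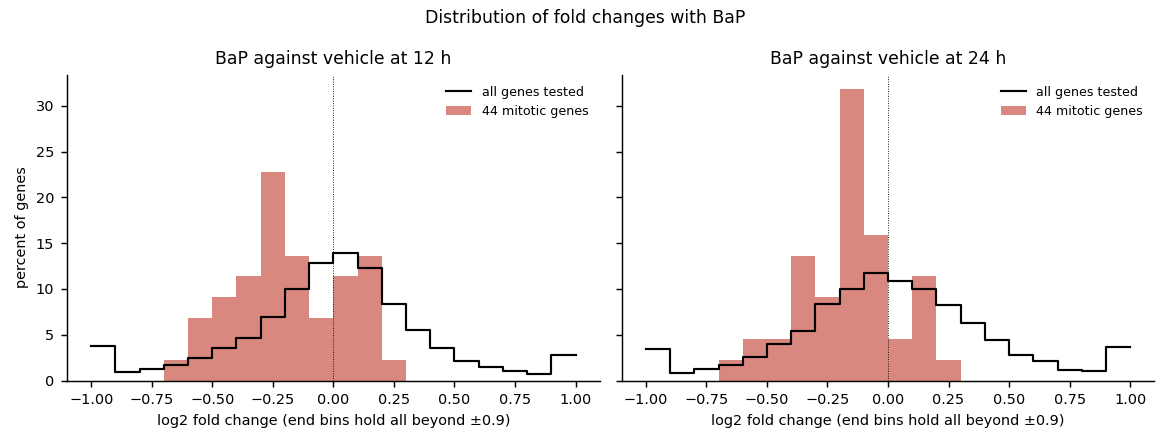
Percent of genes (y axis) by log2 fold change with BaP (x axis, bins of 0.1, the end bins holding all values beyond) at 12 h (left) and 24 h (right), for the 44 mitotic genes (red bars) and all genes tested (black line). The mitotic genes sit left of the line's centre, with medians of -0.21 and -0.15, and none lies in an end bin.

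The difference between the BaP effects at the 2 times was tested as an interaction. In edgeR 0 of the 44 genes passed, with 0.0814% of all genes called lower, 0.461% higher and 0.543% in either direction, and the smallest adjusted p was 0.52. At an unadjusted p under 0.05 there was 1 of 44 (2.27%), INCENP, against 9.51% of all genes, and DESeq2 called 0. Without BaP 24 h replicate 1, PTTG1 passed (0.63, adjusted p = 0.04). By sign, 27 genes were below 0 at both times and 3 above at both, 5 went from below to above and 9 from above to below.

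**Figure D3:**
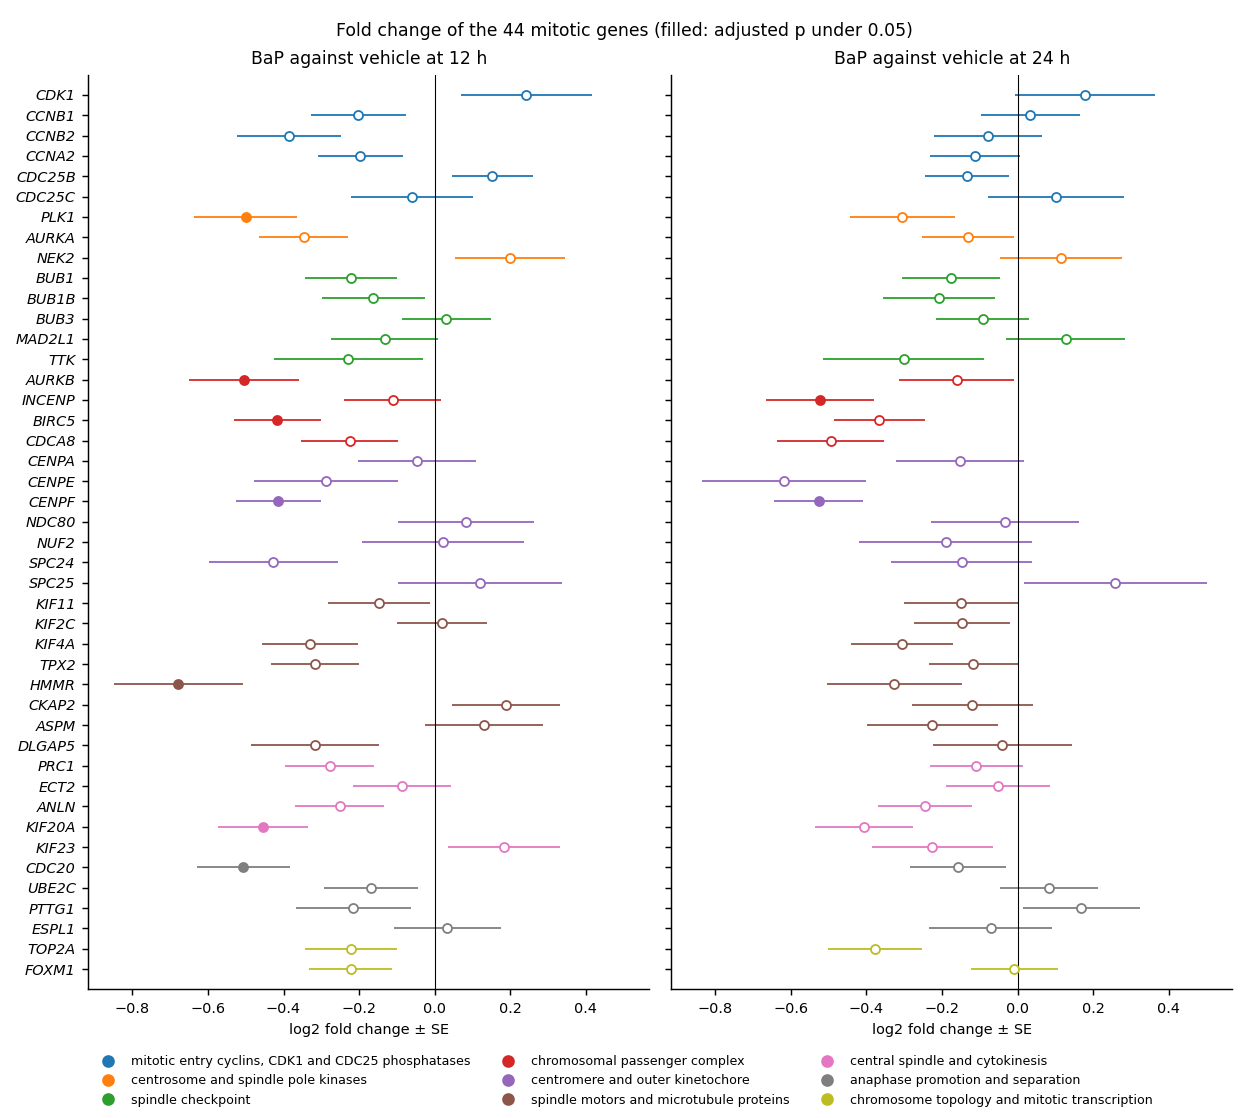
Log2 fold change (x axis, ± SE, 2 libraries per group) of each of the 44 mitotic genes with BaP at 12 h (left) and 24 h (right), coloured by role; filled points have an adjusted p under 0.05. The 7 filled points at 12 h and the 2 at 24 h lie below 0.

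The genes of mitotic entry were CDK1, its cyclins CCNB1, CCNB2 and CCNA2, and the phosphatases CDC25B and CDC25C that activate it. None of the 6 passed at 12 h or 24 h, where 8.25% and 5.30% of all genes tested did in either direction. CCNB2 came nearest at 12 h (-0.39 ± 0.14, adjusted p = 0.11), with 62.1 and 62.9 CPM in the vehicle libraries and 49.1 and 46.7 with BaP. Its vehicle and BaP libraries did not overlap at 12 h. It was called lower in a fit to the 12 h libraries alone (adjusted p = 0.019), with no filter (0.044) and without either BaP 24 h library (0.016 and 0.018). CCNB1 had 107 and 98.2 CPM with vehicle and 90.3 and 87.6 with BaP at 12 h (-0.20 ± 0.12, adjusted p = 0.42), and 0.03 ± 0.13 at 24 h. CDK1 itself stood above 0 at both times (0.24 ± 0.17, adjusted p = 0.51, and 0.18 ± 0.19, adjusted p = 0.65), with overlapping libraries. CDC25B had both BaP libraries above both vehicle libraries at 12 h (124 and 134 against 118 and 115 CPM) and below them at 24 h (102 and 107 against 112 and 118 CPM). The change in its BaP effect was -0.29 ± 0.16 (adjusted p = 0.59), which did not pass.

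PLK1, AURKA and NEK2 encode kinases of the centrosome and spindle pole. PLK1 had 382 and 294 CPM in the vehicle 12 h libraries and 233 and 244 in the BaP 12 h libraries. The groups did not overlap, and vehicle replicate 1 was the highest library. PLK1 fell by 0.50 on the log2 scale (SE 0.14, adjusted p = 0.031). This call was lost without vehicle 12 h replicate 1 (-0.29, adjusted p = 0.32), without either BaP 12 h library (0.29 and 0.16), without either vehicle 24 h library (0.062 and 0.063) and with counts thinned to the depth of the shallowest library (0.18). At 24 h it had 271 and 286 CPM with vehicle and 212 and 237 with BaP (-0.30 ± 0.14, adjusted p = 0.23). AURKA, which matures the spindle poles, had 136 and 124 CPM with vehicle and 102 and 103 with BaP at 12 h (-0.35 ± 0.12, adjusted p = 0.086), and its groups did not overlap. It passed in the fit to the 12 h libraries alone (adjusted p = 0.023), with thinned counts (0.045) and without either BaP 24 h library (0.023 for each). NEK2, a centrosome-splitting kinase, stood above 0 at both times (0.20 ± 0.15 and 0.12 ± 0.16), with adjusted p of 0.52 and 0.75.

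The spindle checkpoint genes BUB1, BUB1B, BUB3, MAD2L1 and TTK showed 0 calls of 5 at either time. Of all genes tested, 8.25% were called at 12 h and 5.30% at 24 h. BUB1 had 63.2 and 68.4 CPM with vehicle and 52.5 and 60.0 with BaP at 12 h (-0.22 ± 0.12, adjusted p = 0.35), and 64.0 and 65.6 against 63.8 and 53.3 at 24 h (-0.18 ± 0.13, adjusted p = 0.49). In both comparisons its BaP libraries lay below the vehicle libraries, at 24 h by a narrow margin. TTK, the kinase that starts checkpoint signalling, had the lowest fold changes of the 5 (-0.23 ± 0.20 and -0.30 ± 0.21), and BUB3 the highest at 12 h (0.03 ± 0.12). MAD2L1 stood highest at 24 h (0.13 ± 0.16), with 21.0 and 22.1 CPM with BaP against 20.9 and 18.6 with vehicle.

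The chromosomal passenger complex corrects faulty attachments and guides cytokinesis. Its genes are AURKB, the kinase, and INCENP, BIRC5 (survivin) and CDCA8 (borealin), which localise it. All 4 had both BaP libraries below both vehicle libraries at 12 h, and 3 of 4 at 24 h. The same held for 56.8% and 52.3% of the 44 mitotic genes and for 23.9% and 24.0% of all genes. At 12 h AURKB had 81.9 and 80.5 CPM with vehicle and 55.9 and 58.4 with BaP, and fell by 0.51 (SE 0.14, adjusted p = 0.042). BIRC5 had 157 and 135 CPM with vehicle and 110 and 109 with BaP, and fell by 0.42 (SE 0.12, adjusted p = 0.035). Each call was lost without either BaP 12 h library (adjusted p of 0.17 to 0.29), without vehicle 12 h replicate 1 (0.16 and 0.25) and without either vehicle 24 h library (0.074 to 0.077). The AURKB call was also lost by DESeq2 (0.057) and without vehicle 12 h replicate 2 (0.11), and the BIRC5 call with thinned counts (0.11).

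At 24 h the other 2 subunits had the lower values. INCENP had 45.6 and 49.9 CPM with vehicle and 38.6 and 30.1 with BaP, and fell by 0.52 (SE 0.14, adjusted p = 0.043). Of the 9 calls with BaP at the 2 times it held in the fewest alternatives, 5 of 16. Those that lost it included DESeq2 (0.093), either vehicle 24 h library left out (0.18 and 0.27) and BaP 24 h replicate 2 left out (-0.30, adjusted p = 0.51). It was also lost when any of the 12 h libraries was left out (0.051 to 0.082), with only the 24 h libraries (0.12) and with thinned counts (0.13). CDCA8 had 41.3 and 43.5 CPM with vehicle and 25.9 and 32.1 with BaP (-0.49 ± 0.14, adjusted p = 0.055), and passed with DESeq2's size factors (0.047), no filter (0.018), the exact test (0.021) and posterior mean counts (0.049). BIRC5 stood at -0.37 ± 0.12 (adjusted p = 0.095), with 133 and 136 CPM against 96.0 and 111. AURKB had 71.8 and 78.4 CPM with vehicle and 51.0 and 77.5 with BaP, so that its BaP libraries lay apart (-0.16 ± 0.15, adjusted p = 0.61).

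Among the genes of the centromere and outer kinetochore, CENPF was called at both times. It encodes a large kinetochore protein that accumulates in G2. CENPF had 93.0 and 94.7 CPM with vehicle and 71.8 and 69.1 with BaP at 12 h, and 86.9 and 94.7 against 67.9 and 59.5 at 24 h. The BaP libraries lay below all vehicle libraries at both times. The fall was 0.41 at 12 h (SE 0.11, adjusted p = 0.03) and 0.53 at 24 h (SE 0.12, adjusted p = 0.017). Its values at 12 h ranged from -0.45 to -0.40 over 16 alternatives, of which 8 lost the call (adjusted p up to 0.23, without BaP 12 h replicate 2). Those 8 were leaving out any of the 4 libraries at 12 h or either vehicle 24 h library, DESeq2 (0.059) and thinned counts (0.085). At 24 h they ranged from -0.61 to -0.42, and 5 lost it: without BaP 24 h replicate 2 (0.18), without either vehicle 24 h library (0.09 and 0.18), with only the 24 h libraries (0.067) and with thinned counts (0.066).

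The other 6 kinetochore genes did not pass. CENPA, the centromeric histone, had 14.0 and 16.8 CPM with vehicle and 15.7 and 14.2 with BaP at 12 h (-0.05 ± 0.16). CENPE, a kinesin that moves chromosomes to the spindle equator, had the lowest value of all 44 genes at 24 h (-0.62 ± 0.22, adjusted p = 0.12), with 13.8 and 15.2 CPM against 11.3 and 8.63. Of the NDC80 complex, which grips microtubules, none of the 4 genes passed. At 12 h SPC24 stood at -0.43 ± 0.17 (adjusted p = 0.16), and NDC80, NUF2 and SPC25 at 0.08 ± 0.18, 0.02 ± 0.21 and 0.12 ± 0.22. SPC25 had 9.75 and 20.5 CPM in the BaP 24 h libraries, the widest gap between replicates of any member (log2 1.07).

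The spindle motors and microtubule proteins had 1 call of 8 at 12 h and 0 at 24 h, where 8.25% and 5.30% of all genes tested were called. HMMR, a microtubule-binding protein of the spindle pole, had the largest fall of all 44 genes at 12 h. It had 15.1 and 17.6 CPM with vehicle and 9.07 and 11.2 with BaP, with no overlap, and fell by 0.68 (SE 0.17, adjusted p = 0.02). The call was lost without BaP 12 h replicate 1 (0.25) or replicate 2 (0.051), without vehicle 12 h replicate 2 (0.11), by DESeq2 (0.082) and with thinned counts (0.13). At 24 h HMMR had 20.6 and 18.8 CPM with vehicle and 17.6 and 14.98 with BaP (-0.33 ± 0.18, adjusted p = 0.33). TPX2, which activates AURKA on the spindle, had 279 and 257 CPM against 211 and 219 at 12 h (-0.32 ± 0.12, adjusted p = 0.12) and 252 and 250 against 221 and 241 at 24 h. KIF4A, a chromosome-arm kinesin, stood at -0.33 ± 0.13 and -0.31 ± 0.14 (adjusted p = 0.14 and 0.22) and its groups overlapped at neither time. CKAP2, ASPM and KIF2C stood above 0 at 12 h (0.19 ± 0.14, 0.13 ± 0.16 and 0.02 ± 0.12), and all 8 were below 0 at 24 h.

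Of the 5 central spindle and cytokinesis genes, 1 was called at 12 h and 0 at 24 h, where 8.25% and 5.30% of all genes tested were. This was KIF20A, which encodes the kinesin that carries the passenger complex to the central spindle. KIF20A had 78.4 and 67.9 CPM with vehicle and 50.8 and 55.7 with BaP, without overlap, and fell by 0.46 (SE 0.12, adjusted p = 0.025). At 24 h it had 62.8 and 59.1 CPM against 48.8 and 44.5 (-0.41 ± 0.13, adjusted p = 0.085). The 12 h call was lost without either BaP 12 h library (0.3 and 0.099), without vehicle 12 h replicate 1 (0.2), without either vehicle 24 h library (0.052 for each), by DESeq2 (0.062) and with thinned counts (0.18). PRC1, which bundles central spindle microtubules, and ANLN, a scaffold of the contractile ring, had BaP libraries below vehicle at both times without passing (-0.28 ± 0.12 and -0.25 ± 0.12 at 12 h, adjusted p = 0.19 and 0.25). KIF23, the motor of the centralspindlin complex, had its BaP libraries above vehicle at 12 h (0.18 ± 0.15) and below at 24 h (-0.23 ± 0.16), and neither passed (adjusted p = 0.57 and 0.47).

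The genes of anaphase were CDC20, the activator of the anaphase-promoting complex, UBE2C, its ubiquitin-conjugating enzyme, PTTG1 (securin) and ESPL1 (separase). CDC20 had the smallest adjusted p at 12 h. It had 134 and 117 CPM with vehicle and 87.2 and 88.8 with BaP, and fell by 0.51 (SE 0.12, adjusted p = 0.016). The call held in 13 of 16 alternatives and was lost without BaP 12 h replicate 1 (0.17), replicate 2 (0.12) or vehicle 12 h replicate 1 (0.14). At 24 h its groups overlapped, with 107 and 88.1 CPM against 82.5 and 91.7 (-0.16 ± 0.13, adjusted p = 0.54). CDC20 in vehicle cells was itself at -0.35 ± 0.12 at 24 h against 12 h (adjusted p = 0.15), while in BaP cells it stood at -0.002 ± 0.13. The difference between these changes did not pass as an interaction (0.35 ± 0.18, adjusted p = 0.56). PTTG1 had 71.6 and 69.5 CPM with vehicle and 60.8 and 60.7 with BaP at 12 h (-0.22 ± 0.15, adjusted p = 0.5), and 77.8 and 82.3 against 67.9 and 106 at 24 h. The latter BaP replicates lay on either side of the vehicle libraries: the 24 h value was 0.17 ± 0.16 (adjusted p = 0.6), 0.40 (adjusted p = 0.034) without BaP 24 h replicate 1 and -0.24 (adjusted p = 0.54) without replicate 2. Almost no reads were given to the near-identical copies of PTTG1 and AURKA (0 in each library for PTTG2 and PTTG3P, at most 5 for AURKAP1), and how far reads could be told apart was not tested. UBE2C stood at -0.17 ± 0.12 and 0.08 ± 0.13.

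TOP2A, the topoisomerase that untangles sister chromatids, had 208 and 242 CPM with vehicle and 186 and 200 with BaP at 12 h (-0.22 ± 0.12, adjusted p = 0.35), and 240 and 246 against 200 and 176 at 24 h (-0.38 ± 0.12, adjusted p = 0.096). It passed at 24 h without BaP 24 h replicate 1 (-0.47, adjusted p = 0.02). FOXM1, the transcription factor that activates many genes of this list in G2, had 184 and 170 CPM with vehicle and 149 and 154 with BaP at 12 h (-0.22 ± 0.11, adjusted p = 0.28). At 24 h its libraries overlapped, with 128 and 141 CPM against 137 and 130 (-0.01 ± 0.12). Neither gene passed at either time.

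**Figure D4:**
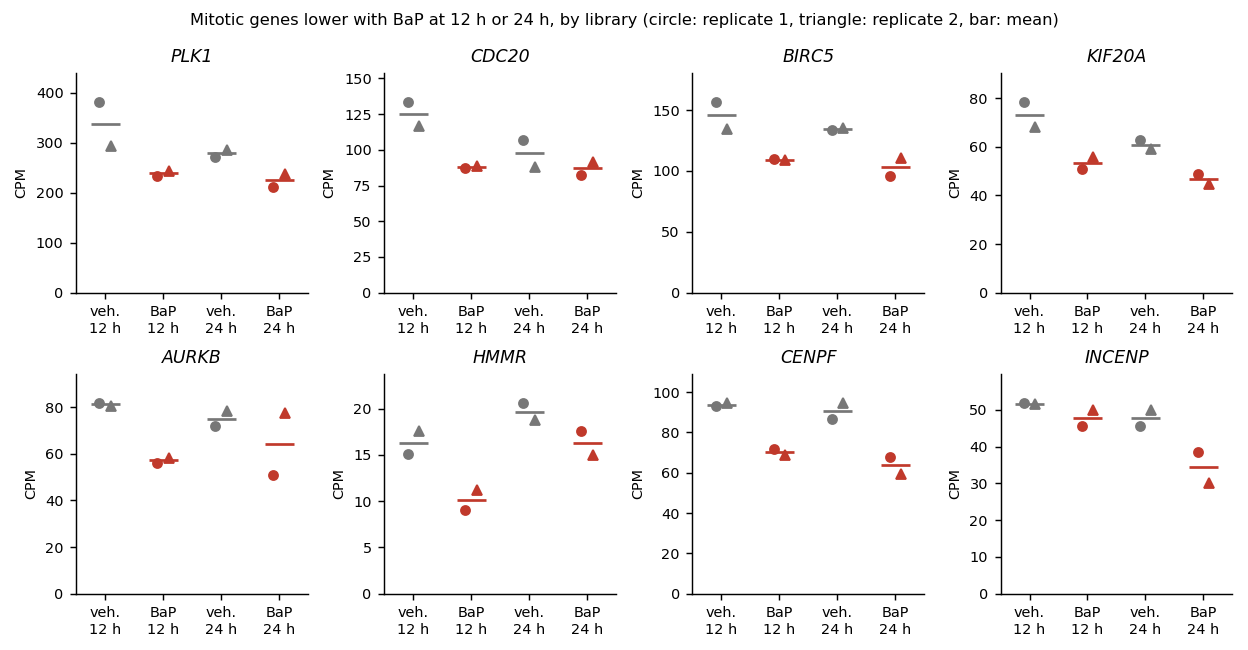
CPM (y axis, from 0) in each library for the 8 mitotic genes called lower with BaP at 12 h or 24 h, by group (x axis; grey vehicle, red BaP; circle replicate 1, triangle replicate 2, bar mean of 2). At 12 h the BaP libraries lie below the vehicle libraries in all 8 panels, and at 24 h the groups overlap for AURKB and CDC20.

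Fold changes of genes with and without the motifs are given as a description, with no test. The median log2 fold change at 12 h was -0.16 for the 25 genes with CHR letters in the window and -0.20 for the 12 without, and at 24 h it was -0.18 and -0.13. These 12 genes, AURKB among them, are not shown to lack the element, because other letters and other starts were not searched. With 2 or more CCAAT boxes the 12 h median was -0.22 (18 genes) and with fewer it was -0.13 (19 genes), and at 24 h the medians were -0.16 and -0.15. The 7 genes that fell at 12 h had genomic spans of 4.25 to 61.4 kb in GENCODE 29 and a median of 11.5 kb, against 28.6 kb for all 44 and 29.2 kb for all genes tested with a known span. Of the 44 genes 1, KIF4A, spans over 100 kb (2.27%, against 17.0% of genes tested).

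Levels of different genes were compared per length, on the TPM scale of RSEM's length-corrected fractions, over all 8 libraries. PLK1 was the highest (147.5 TPM, range 111.8 to 216.1), followed by PTTG1 (135.2, 115.9 to 160.8), BIRC5 (121.3, 41.1 to 184.7) and CCNB1 (114.5, 102.0 to 127.1). The ranges of these 4 overlap, so their order is not resolved. BIRC5 varied most among them, with its lowest TPM in BaP 24 h replicate 2. On the CPM scale that library was not its lowest, with 111 CPM against 96.0 in BaP 24 h replicate 1. CENPE was the lowest (1.83 TPM, 0.965 to 2.84), below ASPM (4.51, 3.63 to 5.50), which does not overlap it. The median of the 44 was 17.5 TPM, with 11 genes above 50 TPM and 12 below 10.

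Replicates of the mitotic genes lay closest in vehicle 24 h and farthest apart in BaP 24 h. The SD of the log2 ratio of replicate 2 to replicate 1 across the 44 genes was 0.14 in vehicle 24 h, 0.15 in BaP 12 h, 0.20 in vehicle 12 h and 0.31 in BaP 24 h. In BaP 24 h, 8 genes had a ratio beyond 0.4 on the log2 scale in either direction, against 1 to 3 in the other groups. PTTG1 stood at 0.64 there and at -0.003 in BaP 12 h. The SE of the tests, 0.11 to 0.22 at 12 h and 0.11 to 0.24 at 24 h, compares with falls of about 0.5.

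Change over time was compared within each treatment. In vehicle cells, 1 of 44 genes was lower at 24 h than at 12 h and 0 were higher, where 1.01% and 2.27% of all genes were, 3.28% in either direction. This was ESPL1, the protease that cleaves cohesin, with 47.4 and 42.8 CPM at 12 h and 32.1 and 23.3 at 24 h (-0.67 ± 0.15, adjusted p = 0.019). The call was lost when vehicle 12 h replicate 1 (0.11) or vehicle 24 h replicate 2 (0.35) was left out, and with thinned counts (0.1), and without either BaP 24 h library 2 genes were called. FOXM1 stood at -0.40 ± 0.11 (adjusted p = 0.063), and passed with no filter (0.036), the exact test (0.041), only the vehicle libraries (0.024) and without either BaP 24 h library (0.015 and 0.017).

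In BaP cells 3 genes were lower at 24 h than at 12 h and 2 higher, where 7.34% and 10.1% of all genes were, 17.4% in either direction. ESPL1 fell by 0.78 (SE 0.16, adjusted p = 0.003), from 44.2 and 48.0 CPM to 28.5 and 26.1. INCENP fell by 0.53 (SE 0.14, adjusted p = 0.016), from 45.6 and 50.03 CPM to 38.6 and 30.1, and CDCA8 by 0.50 (SE 0.14, adjusted p = 0.022), from 39.3 and 45.2 to 25.9 and 32.1. HMMR rose by 0.63 ± 0.18 (adjusted p = 0.027), from 9.07 and 11.2 CPM to 17.6 and 14.98. PTTG1 rose by 0.56 ± 0.16 (adjusted p = 0.022), and its value was 0.16 (adjusted p = 0.61) without BaP 24 h replicate 2. The HMMR and PTTG1 calls were lost without either BaP 12 h library or without BaP 24 h replicate 2, and 5 genes were called higher without BaP 24 h replicate 1. All 3 falls were lost without BaP 12 h replicate 2 (adjusted p of 0.054 to 0.23), and those of ESPL1 and INCENP without BaP 24 h replicate 2 (0.053 and 0.32, where INCENP stood at -0.32). In vehicle cells over the same time INCENP stood at -0.12 ± 0.13 and CDCA8 at -0.23 ± 0.13. HMMR stood at 0.28 ± 0.17 and PTTG1 at 0.18 ± 0.15 there, and none of these passed. The interaction, which compares the changes over time between treatments, passed for none of the genes named here. These comparisons over time share libraries with those of BaP against vehicle.

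Further genes of the same pathways were described from 5 lists, with 124 of 125 symbols matched. Their calls come from the main fit to all 8 libraries. Whether each call holds in the alternatives was not tested. Of all genes tested, 4.84% were called lower and 3.41% higher at 12 h, and 2.20% and 3.11% at 24 h. Of 21 condensin, cohesin and shugoshin genes tested, 2 were lower at 12 h and 1 at 24 h, with medians of -0.04 and -0.18, and 0 were higher. NCAPD2, a condensin subunit, had 219 and 201 CPM with vehicle and 134 and 143 with BaP at 12 h (-0.60 ± 0.12, adjusted p = 0.0033), and 198 and 189 against 141 and 123 at 24 h (-0.56 ± 0.12, adjusted p = 0.012). Its BaP libraries lay below all vehicle libraries at both times. STAG1, a cohesin subunit, was lower at 12 h (-0.83 ± 0.19, adjusted p = 0.01).

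Of 33 other kinetochore genes, 2 were lower at 12 h and 1 was lower and 1 higher at 24 h, with medians of 0.06 and -0.04. The shares of all genes called were 4.84% lower at 12 h, and 2.20% lower and 3.11% higher at 24 h. MAD1L1, which recruits MAD2 to kinetochores, fell from 35.6 and 29.6 CPM to 9.77 and 9.31 at 12 h (-1.78 ± 0.17, adjusted p = 4e-06) and stood at -0.36 ± 0.17 at 24 h (adjusted p = 0.25). CENPP was lower at 12 h (-1.02 ± 0.29, adjusted p = 0.037), at low levels of 4.87 and 5.66 CPM with vehicle and 1.86 and 3.16 with BaP. At 24 h KNTC1, part of the complex that brings dynein to kinetochores, was lower (-0.57 ± 0.15, adjusted p = 0.037) and SKA2, which stabilises attachments, higher (0.82 ± 0.20, adjusted p = 0.023).

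Of 37 other spindle and cytokinesis genes, 2 were lower at each time and 0 higher, with medians of -0.12 and -0.23. The shares of all genes called lower were 4.84% at 12 h and 2.20% at 24 h. At 12 h they were CIT, a kinase of the midbody (-0.62 ± 0.15, adjusted p = 0.014), and PSRC1 (-0.58 ± 0.15, adjusted p = 0.023). At 24 h they were the kinesins KIF18B (-0.65 ± 0.16, adjusted p = 0.023) and KIFC1 (-0.64 ± 0.15, adjusted p = 0.019), which stood at -0.03 ± 0.14 and -0.04 ± 0.13 at 12 h. The differences between times did not pass for either (adjusted p = 0.28 and 0.27). The 17 genes of the anaphase-promoting complex and its regulators had 0 calls at 12 h and at 24 h. Their medians were 0.06 and 0.16, on the other side of 0 from the mitotic genes, with 5 and 4 of the 17 below 0. The 16 genes of the MuvB, DREAM and NF-Y regulators had 0 calls at both times and medians of -0.20 and -0.15. Of the 6 genes of these lists that were lower at 12 h, 4 span over 100 kb (MAD1L1, STAG1, CENPP and CIT), against 17% of genes tested with a known span. Among the 7 mitotic genes that fell, 0 do, but only 1 of all 44 does, so this contrast cannot show a part of length. A link with length was not tested.

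Transcript usage, the share each transcript takes of its gene's counts, was tested as a separate readout. With edgeR's gene-level F-test, 26 of the 44 genes had more than 1 transcript to test, and 0 passed at 12 h and 0 at 24 h. Of 6848 genes tested, 0.307% and 0.920% passed. At an unadjusted p under 0.05 there were 2 at 12 h, ECT2 (adjusted p = 0.43) and KIF2C (adjusted p = 0.91), and 0 at 24 h, and the Simes test called 0 at each time. In ECT2, which activates RhoA at the cell equator, the transcript ECT2-211 took 71.6% and 63.6% of the counts in the vehicle 12 h libraries and 47.8% and 44.1% with BaP. Without BaP 24 h replicate 1, 3 genes passed at 24 h (BIRC5, CDC25B and CCNB1), and 3 without replicate 2 (BIRC5, CDC25B and SPC24), where 7.06% and 9.15% of all genes tested passed. Each of these fits has a lone BaP 24 h library. With all 8 libraries, BIRC5 did not pass at 24 h by the gene-level F-test (adjusted p = 0.69). The shares of the transcript BIRC5-202 were 43.1% and 24.2% in the vehicle 24 h libraries and 76.7% and 69.1% with BaP. At 12 h they were 48.7% and 49.8% with vehicle and 46.8% and 38.1% with BaP. CENPF was nearly all 1 transcript, CENPF-201, at 93.5% to 97.0% in each library.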

How the data were processed

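Libraries of poly-A RNA from HepG2 were compared, 8 in all. Per the submitters' processing notes, the authors used Bowtie 0.12.7, RSEM 1.1.7, Ensembl release 58 and edgeR. The deposited expected counts (and posterior mean counts) are RSEM's estimates per gene or transcript, without normalisation. The deposited fractions are length-corrected shares of all transcripts, multiplied here to TPM. As for the genome build, it was not given in the sources used here. Counts were rounded and analysed with edgeR 4.0.16 in R 4.3.3. Genes were kept by filterByExpr (minimum count 10, minimum total 15) and library sizes scaled by TMM. All 8 libraries entered 1 fit with a mean for each group, robust quasi-likelihood F-tests and Benjamini-Hochberg adjustment over 14746 genes (threshold 0.05, two-sided). CPM use the scaled library sizes. An SE is the fold change divided by the square root of F. Where a gene is at 0, up to 3 counts are allowed, which is 1.16 CPM in BaP 24 h replicate 1 and 0.181 in replicate 2, for counting error only.

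The members and lists were chosen with earlier results of these data known. Genes named are the members that passed in any comparison, 12 always named, those highest or with the largest rise or fall in their role, and up to 4 passing members of each further list. LIN37 matched no ID. Nothing in the labels ties equal replicate numbers to a shared experiment. The alternatives were DESeq2's size factors, no filter (total count of at least 1), DESeq2 1.42.0 with its Wald test, the exact test of edgeR, a replicate block, only the libraries of a comparison, counts thinned to the shallowest library, posterior mean counts, and leaving out each of the 8 libraries. For usage, transcripts with under 10% of the counts of their gene were left out. The tests were tested on simulated data.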

Additional observations from a re-analysis of the deposited data

Results flagged for a closer look

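The effects of BaP on MAD1L1, a checkpoint gene outside the 44, differed between the times: the log2 fold change at 24 h minus that at 12 h was 1.41, with an adjusted p of 0.008 by edgeR's quasi-likelihood test of the difference. Its BaP libraries held 9.77 and 9.31 CPM at 12 h and 20.3 and 25.2 CPM at 24 h. The vehicle libraries held 35.6 and 29.6 CPM at 12 h and 27.3 and 33.9 CPM at 24 h. Its genomic span is 417 kb in GENCODE 29.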

How the results depend on the processing

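The counts of mitotic genes called lower with BaP were 7 at 12 h and 2 at 24 h. DESeq2 gave 3 and 1, thinned counts 3 and 0, and only the 24 h libraries 0 at 24 h. Leaving out a library gave 0 to 11 at 12 h and 0 to 5 at 24 h, with 0 to 1 higher at 24 h and 0 to 1 higher for the difference between times. In vehicle cells over time, where 1 gene was lower, no filter, the exact test and only the vehicle libraries each gave 2, thinned counts 0, and leaving out a library 0 to 2. In BaP cells over time, where 3 were lower and 2 higher, thinned counts gave 1 and 1, DESeq2 1 higher, only the BaP libraries 0 higher, and leaving out a library 0 to 4 lower and 0 to 5 higher. For transcript usage at 24 h, leaving out a library gave 0 to 3 genes. The causes were not tested. The median fold change stayed below 0 in all 16 alternatives at 12 h (-0.27 to -0.13) and at 24 h (-0.23 to -0.11). Correlations of same-numbered libraries' deviations from their group means ranged from -0.24 (BaP 12 h with BaP 24 h) to 0.42 (BaP 12 h with vehicle 12 h), so the numbers were not taken to pair the samples. With the replicate block the counts were 7 and 2 lower with BaP, 0 for the difference, 1 in vehicle cells, and 3 lower and 2 higher in BaP cells. At 24 h the block lost INCENP (0.057) and called CDCA8 (0.046). It changed no other call among the 12 genes always named and the members that passed in any comparison. The remaining genes were not compared singly under the block. Depth limits BaP 24 h most, with 2592272 counts in replicate 1.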
